A study of Mus musculus with 6 samples.

Results

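SR proteins, hnRNP proteins and related splicing factors were followed as a set of 41 named genes, chosen by symbol from the 24982 gene symbols counted in each library. All 41 had rows in every count table and all 41 passed the filter on low counts, among 12148 genes tested. The cells were KMWT1, a mouse glioma cell line, and RNA was taken 48 hours after transfection from both groups. One group of 3 samples (1, 2 and 3) had received a control siRNA and the other group of 3 (4, 5 and 6) a pool of siRNAs against YY1, a zinc finger transcription factor. The question was how gene expression differs when YY1 is lowered. The knockdown was transient and in a single line, and the labels do not say whether the samples of a group were grown separately. The p-values then reflect only how far these samples differ, and that spread may be technical.

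Splicing removes introns from pre-mRNA, and the spliceosome finds exon ends with help from RNA-binding proteins. SR proteins carry arginine-serine repeats and mostly promote the use of exons to which they bind, while many hnRNP proteins, which coat nascent transcripts, oppose it. Many genes of both families regulate themselves through exons or introns that put a stop codon into their own mRNA, so that the transcript stays in the nucleus or is destroyed by nonsense-mediated decay. Gliomas and neural progenitors are known for high PTBP1, which holds back neuronal exons.

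Libraries held 15738457 to 20644057 counts in genes, the fewest in YY1 siRNA sample 6. That sample also stood apart from the other samples of its group (chi-square per degree of freedom 22.8 and 30.9, against 3.04 to 10.7 for the 4 other pairs within groups), and its count table is the only one not marked as combined. Yy1 itself fell from 127 ± 0.826 to 79.2 ± 1.86 CPM (counts scaled to a common library size after TMM normalisation; SD, n = 3; log2 fold change -0.68, SE 0.0644, edgeR adjusted p 0.00154). Counts assigned to no gene made up 7.87% to 9.03% of the counts in samples 1 to 4, but 10.7% and 11.3% in YY1 siRNA samples 5 and 6. Of 8 glioma stem and progenitor markers, 5 stood at 10 CPM or more, while Olig2 and Prom1 had no counts and Gfap was under 1 CPM. Of the markers of microglia and macrophages 6 of 7 were under 1 CPM, and Tmem119 alone was at 10 CPM or more. The sum of all 7, mostly Tmem119, was 48.7 to 52.8 CPM in control and 39.9 to 46.0 CPM in YY1 siRNA samples. These ranges did not overlap, which in either direction held for 16.3% of tested genes. Under 1 CPM were also 3 of 4 markers of neurons and 3 of 4 of oligodendrocytes, Mag among them with no counts. Of the markers of endothelium, 2 of 4 were at 10 CPM or more, while Pecam1 and Kdr were under 1 CPM. Of those of fibroblasts and pericytes, 4 of 7 were at 10 CPM or more and Col1a2 was under 1 CPM. Their sums were 165 to 193 and 956 to 1116 CPM in control samples. In YY1 siRNA samples these sums were 151 to 187 and 807 to 1027 CPM. The part of these cell types in the results was not tested.

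The promoters of 5 splicing factor genes held the letters of the YY1 motif, AANATGGCG, and these stretches are shown because YY1 is the factor that was lowered. RefSeq windows of 300 bases, from 250 before to 50 after a start site (GRCm38.p6), were found for 37 of the 41 genes. The motif, searched on both strands, was in a window of 13.5% of them, of 6.16% of the 9576 tested genes with a window and of 2.76% of all 27025 genes with one. Ptbp1 held 2 matches, which start 225 and 98 bases before the start site (chr10:79854197-79854352, plus strand). The match of Rbm39 starts 44 bases before the start site (chr2:156179606-156179634, minus strand), and that of Srsf2 starts 49 bases before it (chr11:116853125-116853153, minus strand). Those of Tra2a (chr6:49264016-49264044, minus strand) and Rbm5 (chr9:107770953-107770978, minus strand) begin at bases 19 and 35 after the start site. Each stretch is written 5′ to 3′ on the strand of its gene, with the match in capitals. In Srsf2, Tra2a and Rbm5 the motif is on the other strand, so its reverse complement is seen.
Ptbp1: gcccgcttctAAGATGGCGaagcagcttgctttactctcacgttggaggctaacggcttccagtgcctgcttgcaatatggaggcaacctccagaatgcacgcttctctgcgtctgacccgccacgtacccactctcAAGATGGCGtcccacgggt
Rbm39: gcgacctcccAACATGGCGcccgtggaac
Srsf2: gtggcgcgggCGCCATTTTgtaagggtgg
Tra2a: gcggcacgggCGCCATTTTgcctgaacgt
Rbm5: tcggtggagaCGCCATTTTgtggagc

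These 5 genes had no common direction in the counts. Relative to control, the fitted level in YY1 siRNA samples was 1.18-fold for Tra2a, 1.11-fold for Rbm5 and 1.04-fold for Rbm39, and it was 0.990 of control for Srsf2 and 0.935 for Ptbp1. None passed the test. A match describes the letters of the window only, and no binding was measured.

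No splicing factor gene passed the test, and the fitted differences were small. With edgeR's quasi-likelihood test, adjusted over all 12148 genes, 0 of 41 had an adjusted p under 0.05 (background 0.00823%, which is Yy1), and DESeq2 and limma-voom also called 0 of 41 (backgrounds 0.153% and 0.00823%). In bulk RNA, a change in RNA per cell cannot be told apart from a change in the mix of cells. At an unadjusted p under 0.05 there were 2 of 41, Luc7l3 and Rbm25, both higher, which is 4.88% against a background of 10.8% of tested genes (5.38% higher and 5.46% lower). DESeq2 gave 4 of 41 at that p, or 9.76%, against 5.53% of the 17046 genes it tested and 7.61% of the 12148 that edgeR tested. With limma-voom it was 2 of 41, or 4.88%, against 11% of tested genes. The share among the 41 genes thus lay below that of all genes with edgeR and limma-voom and above it with DESeq2. Fitted levels in YY1 siRNA samples ran from 0.903 of control (Hnrnpm) to 1.19-fold (Luc7l3), and 32 of the 41 lay within 1.1-fold. For all 41 the 95% interval stayed inside 1.5-fold up or down, which held for 82.2% of tested genes. The median log2 fold change was 0.03, with 21 genes above 0 and 20 below, beside 0.00070 and 50.2% above 0 over all tested genes. Counts per gene and library ran from 407 for Hnrnpa3 to 15887 for Sf3b1. The tested genes include some under 1 CPM, and the share with intervals inside 1.5-fold was not compared at like counts.

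**Figure D1:**
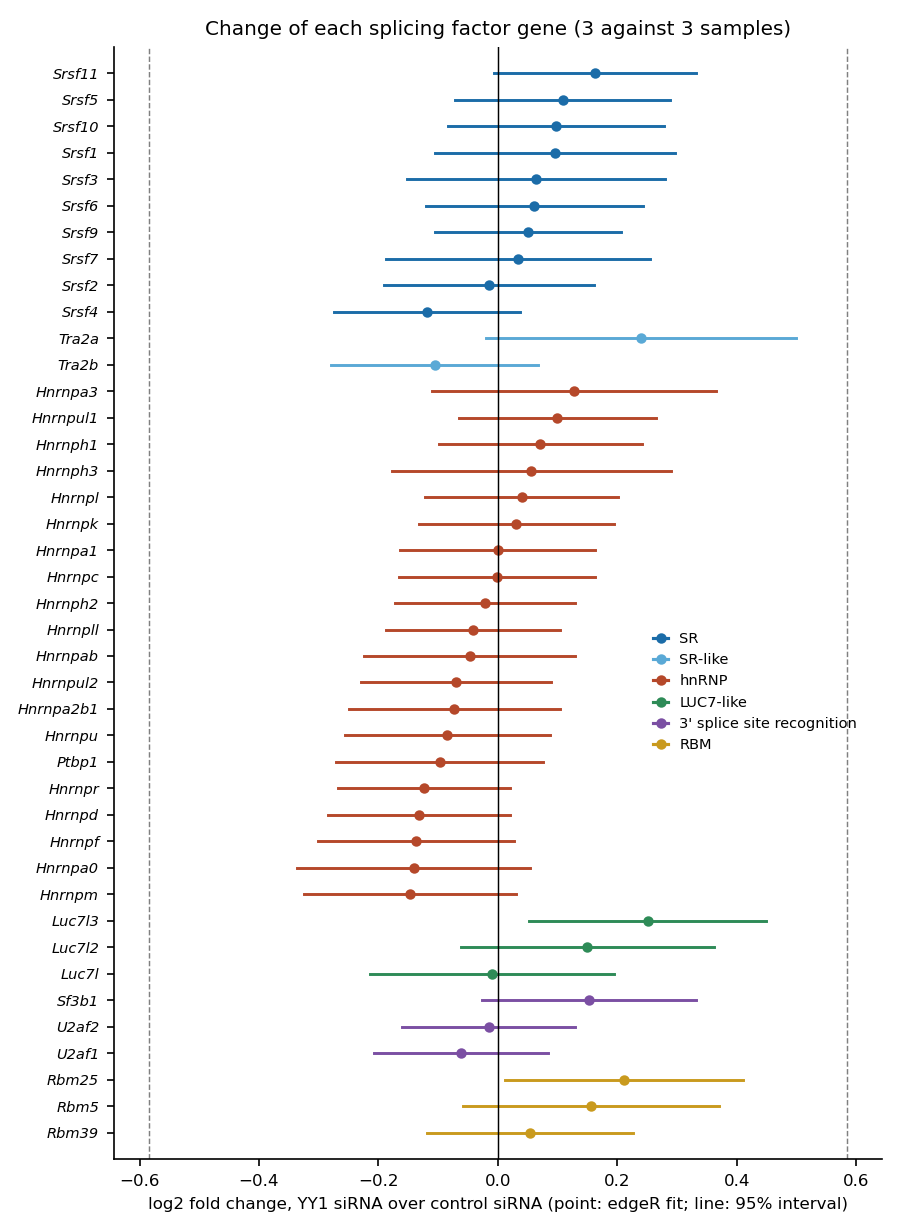
Fitted log2 fold change of the 41 genes (x axis, YY1 siRNA over control siRNA, 3 samples each) with 95% intervals, grouped by role. Dashed lines mark 1.5-fold, and the intervals of Luc7l3 and Rbm25 alone leave out 0.

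The number of genes at an unadjusted p under 0.05 depended on single libraries. Without YY1 siRNA sample 4 it was 16 of 41 (39.0%, against 19.1% of the genes tested in that fit), 12 higher and 4 lower. It was 0 without control siRNA sample 1 (5.4% of all genes) and without YY1 siRNA sample 5 (11.7%). With control siRNA sample 2 or 3 left out it was 1 (Luc7l3), or 2.44%, against 6.38% and 11.3% of all genes. Leaving out YY1 siRNA sample 6 also gave 1 (Hnrnpul1), against 8.2% of all genes. The edgeR adjusted p of Luc7l3 was 0.364 with all samples and 0.0553 without YY1 siRNA sample 4, the smallest of any of the 41 genes in any fit.

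Among the 10 SR protein genes, 8 had a fitted change above 0 and none had an unadjusted p under 0.05. When the no-gene share was added to the fit as a covariate, 2 of the 10 were above 0. The highest shares are in YY1 siRNA samples 5 and 6, so that fit cannot fully tell the share apart from the knockdown. Srsf5, which had the highest mean CPM over the 6 libraries, stood at 217, 215 and 217 CPM in control samples 1, 2 and 3 and at 205, 242 and 253 CPM in YY1 siRNA samples 4, 5 and 6. Samples 5 and 6 lay above every control and sample 4 below every control, so that the groups overlapped (1.08-fold, 95% interval 0.951 to 1.22). Srsf11, another gene of the SR family, stood at 207, 215 and 214 CPM in control samples and at 214, 243 and 255 CPM in YY1 siRNA samples. In the YY1 siRNA samples it was slightly above Srsf5. Sample 4 lay inside the control range and samples 5 and 6 above it (log2 fold change 0.16, SE 0.0781, edgeR adjusted p 0.471).

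Srsf4 went the other way, with 52.6, 52.5 and 51.1 CPM in control samples and 51.0, 47.8 and 45.0 CPM in YY1 siRNA samples. All 3 YY1 siRNA samples lay below all 3 controls, though sample 4 only just (log2 fold change -0.12, SE 0.0721, edgeR adjusted p 0.540). The annotation places Gm12992 on the other strand over exons of Srsf4, so the Srsf4 counts may include reads of Gm12992. A930004J17Rik overlaps the Srsf4 locus on the same strand, but Srsf4 shares no 50-base transcript window with another gene. Over all 41 genes the groups did not overlap in 4, with YY1 siRNA higher in 1 (Sf3b1) and lower in 3 (Srsf4, Hnrnpd and Hnrnpr), where tested genes gave 7.36% and 8.91%.

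The other 7 SR genes had fitted levels from 0.990 of control (Srsf2) to 1.07-fold (Srsf10). Srsf1, the founding SR protein and a known oncogene product, stood at 171, 163 and 172 CPM in control samples and at 153, 190 and 198 CPM in YY1 siRNA samples. Like Srsf5 it had sample 4 below the control range and samples 5 and 6 above it. Srsf3, the smallest SR protein, reached 132 CPM in sample 6 against 103 to 120 CPM in the other samples. Srsf9 did not share the low value of sample 4, which was its highest at 113 CPM.

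The SR-like pair Tra2a and Tra2b, mammalian relatives of the fly sex determination factor transformer-2, differed in direction. Tra2a stood at 112, 118 and 122 CPM in control samples and at 111, 148 and 157 CPM in YY1 siRNA samples. Samples 5 and 6 lay above every control and sample 4 below every control (log2 fold change 0.24, SE 0.117, edgeR adjusted p 0.481). Tra2b stood at 59.98, 62.7 and 69.6 CPM in control samples and at 55.4, 59.8 and 63.5 CPM in YY1 siRNA samples, a fitted 0.929 of control.

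The 20 hnRNP genes, PTBP1 (hnRNP I) among them, had 14 fitted changes below 0 and 6 above, and none had an unadjusted p under 0.05. Their median log2 fold change was -0.04, beside 0.06 for the SR genes and 0.07 for the SR-like pair. With the no-gene share as a covariate this order turned. The medians were then -0.021 for the hnRNP genes, -0.057 for the SR genes and -0.087 for the SR-like pair. As above, that fit cannot fully tell the share apart from the knockdown. Hnrnpa2b1, which encodes a core hnRNP protein, had the highest mean CPM over the 6 libraries, at 623, 583 and 638 CPM in control samples and 619, 573 and 561 CPM in YY1 siRNA samples, with the groups overlapping. In YY1 siRNA samples 5 and 6 Hnrnpk was higher, at 577 and 599 CPM. The lowest fitted value belonged to Hnrnpm, at 237, 217 and 251 CPM in control samples and 222, 220 and 194 CPM in YY1 siRNA samples. Only sample 6 lay below all controls (log2 fold change -0.15, SE 0.0817, edgeR adjusted p 0.513). March2 overlaps Hnrnpm on the same strand and shares 13.5% of its 50-base transcript windows.

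Hnrnpa0, an intronless gene for a small A/B type protein, stood at 317, 340 and 323 CPM in control samples and at 330, 300 and 259 CPM in YY1 siRNA samples. Sample 4 lay within the control range and sample 6 lowest of all (log2 fold change -0.14, SE 0.0900, edgeR adjusted p 0.553). Hnrnpd, which encodes the mRNA decay factor AUF1, stood at 156, 142 and 149 CPM in control samples and at 142, 137 and 130 CPM in YY1 siRNA samples. The groups did not overlap, but sample 4 and control sample 2 were almost equal (edgeR adjusted p 0.501). Hnrnpr, a relative of the RNA-binding protein SYNCRIP, was lower in all 3 YY1 siRNA samples, at 89.7, 93.5 and 87.5 CPM against 101, 95.5 and 98.3 CPM in control samples (log2 fold change -0.12, SE 0.0664, edgeR adjusted p 0.505). Both Hnrnpd and Hnrnpr have an annotated gene on the other strand over their exons.

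Hnrnpf, which binds runs of guanines, stood at 62.8, 63.6 and 60.3 CPM in control samples and at 61.4, 56.0 and 52.4 CPM in YY1 siRNA samples, with sample 4 inside the control range (edgeR adjusted p 0.510). Other genes contain 36.8% of its 50-base transcript windows, the largest share among the 41, so its level depends on how such reads were counted. Its relative Hnrnph1 stood at 361, 348 and 371 CPM in control samples and 347, 395 and 393 CPM in YY1 siRNA samples, a fitted 1.05-fold. Ptbp1 stood at 347, 340 and 339 CPM in control samples and at 345, 324 and 290 CPM in YY1 siRNA samples, again with sample 4 inside the control range.

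LUC7-like proteins are parts or partners of the U1 particle, which recognises the start of an intron. Luc7l3 had the smallest p of the 41 genes. It stood at 140, 149 and 141 CPM in control samples and at 145, 178 and 188 CPM in YY1 siRNA samples, so that samples 5 and 6 were high and sample 4 lay among the controls (log2 fold change 0.25, SE 0.0913, 1.19-fold with a 95% interval of 1.04 to 1.36, unadjusted p 0.0171, edgeR adjusted p 0.364). The gene lies at chr11:94287890-94321988 on the minus strand (mm10, GENCODE M21), with no annotated gene over it and no 50-base window shared with another gene. Luc7l2 stood at 144, 155 and 155 CPM in control samples and 141, 188 and 175 CPM in YY1 siRNA samples (edgeR adjusted p 0.561). Samples 5 and 6 were again above all controls, but sample 4 lay below all of them. Luc7l stood at 0.993 of control, with sample 4 lowest at 89.6 CPM.

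Of the genes that recognise the end of an intron, Sf3b1, the large U2 subunit that holds the branch point, was the most abundant. It stood at 752, 768 and 748 CPM in control samples and at 789, 844 and 890 CPM in YY1 siRNA samples. This was the only gene of the 41 in which all 3 YY1 siRNA samples lay above all controls (log2 fold change 0.15, SE 0.0826, 1.11-fold with a 95% interval of 0.982 to 1.26, edgeR adjusted p 0.505). U2af1 and U2af2, the small and large subunits of the factor that reads the AG and the pyrimidine tract, stood at 0.958 and 0.989 of control. Other genes contain 21.7% and 14.7% of their 50-base windows.

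All 3 RBM genes had fitted changes above 0, and 1 of 3 (Rbm25) did with the no-gene share as a covariate. Rbm25, whose protein works with LUC7-like proteins at the start of introns, stood at 132, 142 and 142 CPM in control samples and at 136, 172 and 172 CPM in YY1 siRNA samples. Sample 4 lay within the control range (log2 fold change 0.21, SE 0.0915, 1.16-fold with a 95% interval of 1.01 to 1.33, unadjusted p 0.0388, edgeR adjusted p 0.431). Rbm5, a regulator of exons in apoptosis genes, stood at 97.5, 105 and 99.7 CPM in control samples and at 94.0, 116 and 127 CPM in YY1 siRNA samples. Rbm39, a U2AF2 relative and the target of sulfonamide degraders, was the most abundant of the 3 at 330, 363 and 338 CPM in control samples and 332, 357 and 381 CPM in YY1 siRNA samples, a fitted 1.04-fold with overlapping groups.

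**Figure D2:**
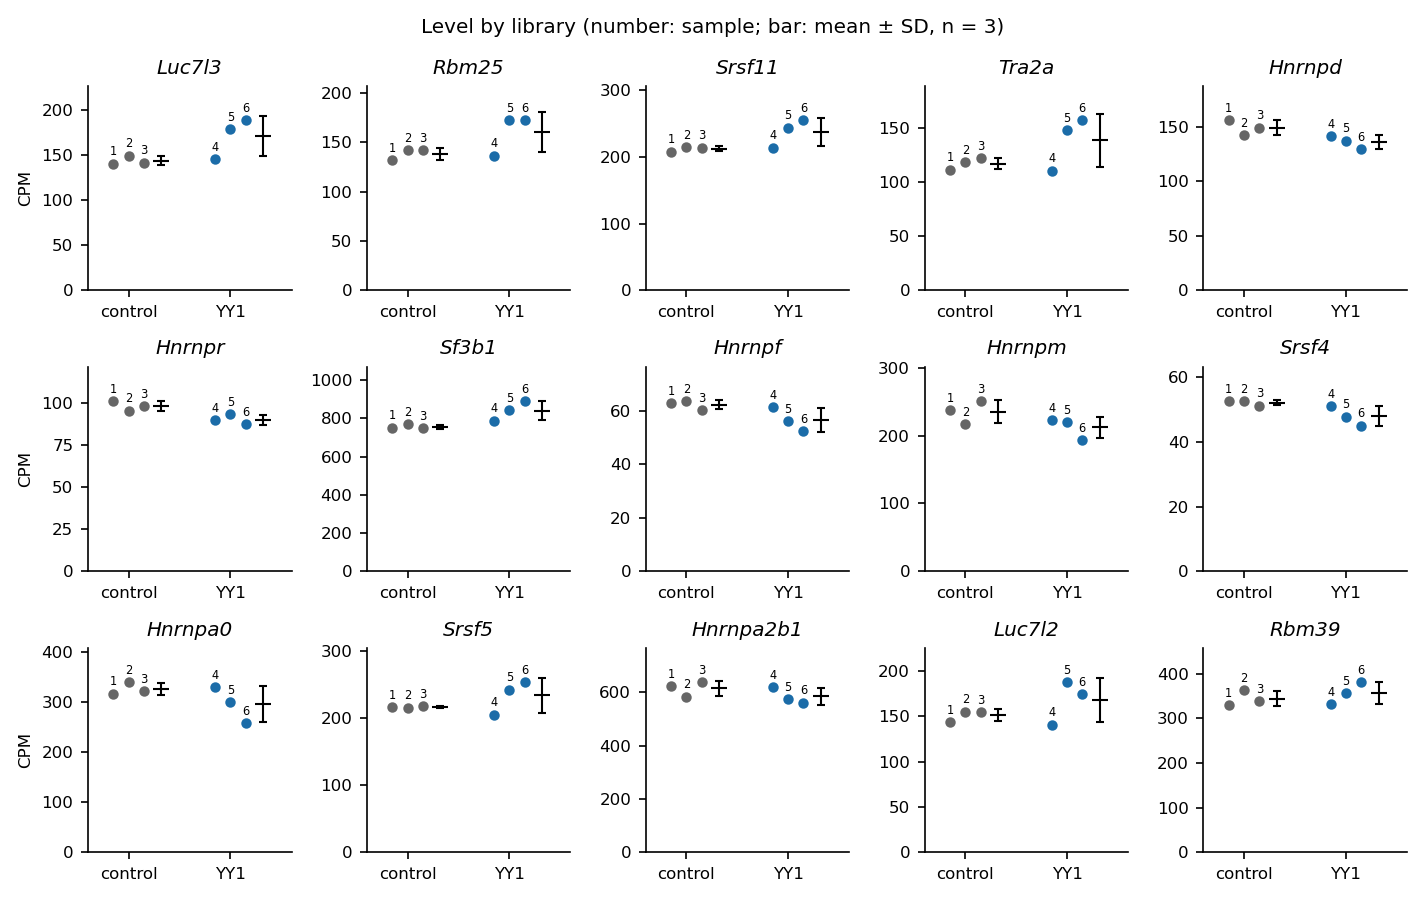
CPM (y axes, from 0) of 15 genes in control and YY1 siRNA libraries, each point labelled with its sample number, with mean ± SD (n = 3). In Luc7l3, Rbm25, Srsf11, Tra2a, Srsf5 and Luc7l2, samples 5 and 6 lie above all controls and sample 4 does not.

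The YY1 siRNA samples differed among themselves more than the controls did. The SD of log2 CPM was larger in the YY1 siRNA group for 36 of 41 genes (87.8%, against 71.7% of tested genes). The median SD of the 41 genes was 0.0504 in control and 0.116 in YY1 siRNA samples. Over all tested genes it was 0.082 in control and 0.130 in YY1 siRNA samples. In YY1 siRNA sample 4, 20 of the 41 genes lay below all controls (48.8%, against 30.1% of tested genes) and 6 above (14.6%, against 28.8%). In sample 5, 16 lay above all controls (39.0%, against 29.9%) and 12 below (29.3%, against 29.1%). In sample 6, 20 lay above (48.8%, against 36.2%) and 15 below (36.6%, against 39.2%). Sample 4 had 8 of the 10 SR genes below all controls, where sample 6 had 7 above all controls. The hnRNP genes leaned the other way in sample 6, with 13 of 20 below all controls (65.0%, against 39.2%).

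**Figure D3:**
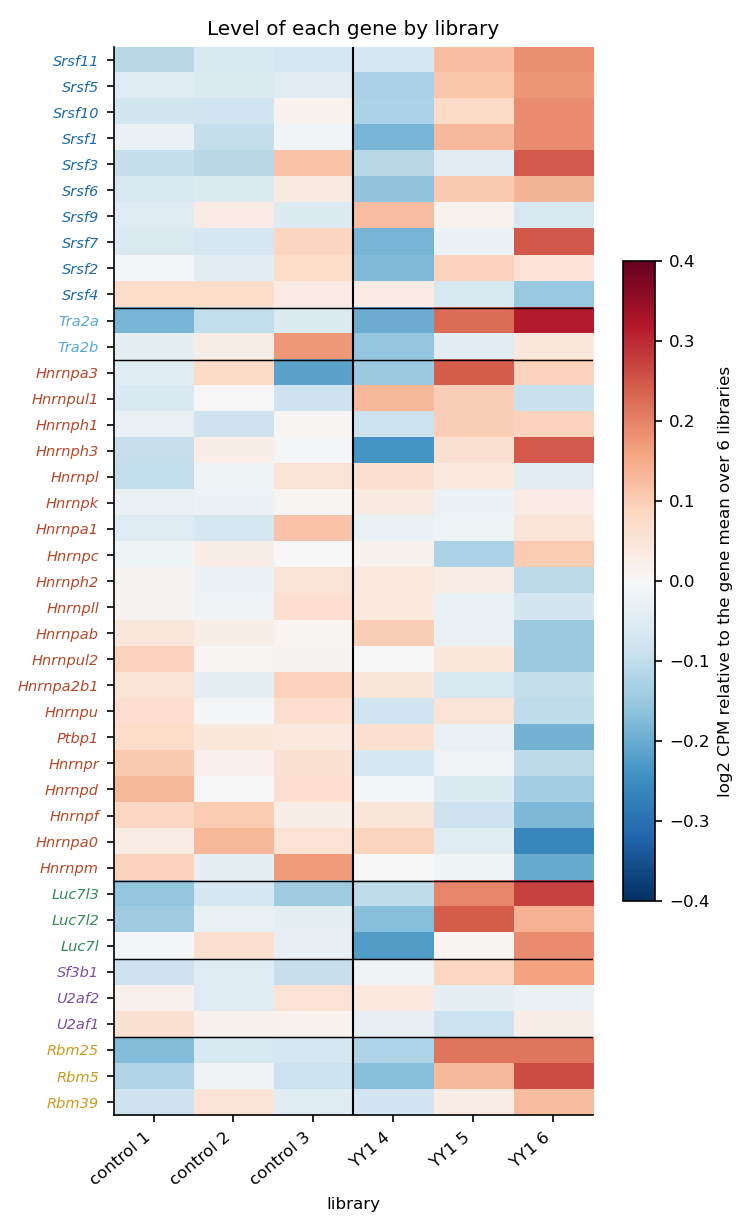
Log2 CPM of each of the 41 genes relative to its mean over the 6 libraries (colour scale), by library, with role groups parted by lines and gene names coloured as in the plot of changes. SR, LUC7-like and RBM genes are mostly low in YY1 siRNA sample 4 and high in samples 5 and 6.

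For part of the 41 genes, YY1 siRNA samples 5 and 6 stood together, apart from sample 4 and the controls. Over all genes compared, sample 5 was nearer to sample 4 than to sample 6 (chi-square per degree of freedom 10.7 and 22.8). Samples 5 and 6 have the largest share of counts in no gene. Both of their values lay above those of the other 4 libraries for 14 of the 41 genes (34.1%, against 13.4% of tested genes) and below them for 8 (19.5%, against 14.5%). The 14 were Srsf1, Srsf5, Srsf6, Srsf10, Srsf11, Tra2a, Hnrnpa3, Hnrnph1, Hnrnph3, Luc7l2, Luc7l3, Sf3b1, Rbm5 and Rbm25. The 8 were Srsf4 and the hnRNP genes Hnrnpa0, Hnrnpa2b1, Hnrnpab, Hnrnpd, Hnrnpf, Hnrnpll and Ptbp1. The median level of the 10 SR genes, as log2 CPM relative to each gene's mean over 6 libraries, was -0.05, -0.06 and 0.02 in control samples 1, 2 and 3 and -0.13, 0.09 and 0.18 in YY1 siRNA samples 4, 5 and 6. That of the hnRNP genes was 0.02, 0.00 and 0.04, then 0.03, -0.02 and -0.10.

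Of 6 nuclear-retained RNAs listed, 3 were tested and 0 passed, and these 3 were high in the same 2 libraries. Malat1, which stays in nuclear speckles where SR proteins gather, stood at 515, 456 and 615 CPM in control samples and at 362, 704 and 770 CPM in YY1 siRNA samples 4, 5 and 6. Neat1 and Kcnq1ot1 were also highest in samples 5 and 6 and lowest in sample 4. The part of nuclear or unspliced RNA in the SR, LUC7-like and RBM values was not tested, since the tables hold no counts of introns or exons. With the no-gene share as a covariate in edgeR, Luc7l3 had a log2 fold change of 0.10, Rbm25 of 0.06 and Tra2a of 0.02, and 14 of the 41 genes changed sign (34.1%, against 22.6% of tested genes). These were Srsf1, Srsf3, Srsf5, Srsf6, Srsf7, Srsf10, Hnrnpab, Hnrnph1, Hnrnph2, Hnrnph3, Luc7l2, U2af2, Rbm5 and Rbm39. No gene of the 41 passed in that fit either, and it cannot fully tell the share apart from the knockdown.

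**Figure D4:**
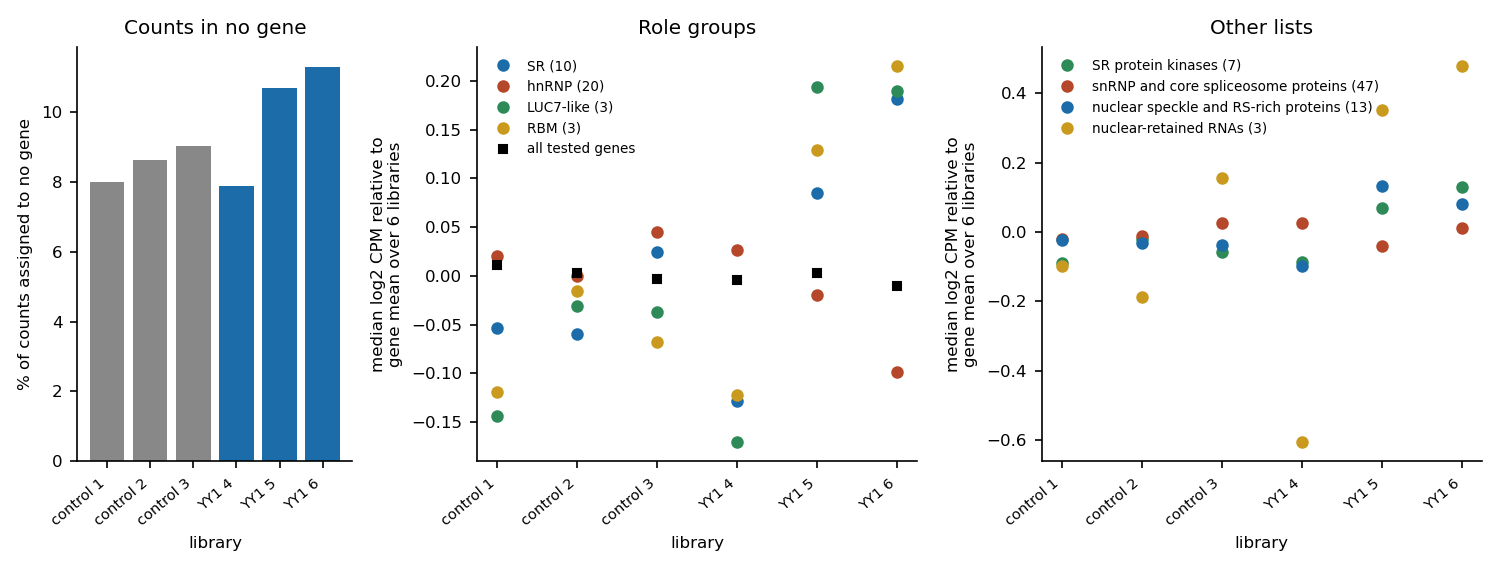
Left, percent of counts assigned to no gene in each library. Middle and right, the median over genes of log2 CPM relative to the gene's mean over 6 libraries, for role groups and for lists of other genes (number of genes in brackets), where SR, LUC7-like and RBM medians are lowest in YY1 siRNA sample 4 and highest in samples 5 and 6.

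Ratios between close relatives were compared for 8 pairs chosen after the values were seen. The log2 ratio of Luc7l3 to Luc7l was 0.42, 0.44 and 0.47 in control samples 1, 2 and 3 and 0.70, 0.76 and 0.66 in YY1 siRNA samples 4, 5 and 6, with means of 0.45 ± 0.022 and 0.71 ± 0.052 (SD, n = 3) and a difference of 0.26. Here sample 4 stood with samples 5 and 6, unlike in the levels of either gene. The log2 ratio of Tra2a to Tra2b was 0.90, 0.92 and 0.81 in control samples and 1.00, 1.31 and 1.31 in YY1 siRNA samples, a mean difference of 0.33, with all YY1 siRNA samples above all controls. The ratios of Hnrnpul1 to Hnrnpul2 (difference 0.17) and of Hnrnpl to Hnrnpll (0.08) also did not overlap between the groups. In each of these 4 the exact permutation p, two-sided, was 0.1, the smallest that 3 against 3 allows. After adjustment over the 8 pairs it was 0.2, and no pair could have passed 0.05. Because the pairs were chosen after the values were seen, no conclusion is drawn from these p-values. How often the groups part in ratios of other gene pairs was not tested. The other 4 pairs overlapped, among them U2af1 to U2af2 (difference -0.05) and Hnrnph1 to Hnrnph2 (0.09).

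Other genes of the splicing pathway gave no call either. With edgeR, 0 of 7 SR protein kinase genes passed over all genes and 7 of 7 had a fitted change above 0 (median 0.11). Clk4, a kinase that frees SR proteins from speckles, stood at 61.1, 65.7 and 64.2 CPM in control samples. In YY1 siRNA samples it stood at 66.4, 76.1 and 94.3 CPM (log2 fold change 0.31, SE 0.111, unadjusted p 0.0186, edgeR adjusted p 0.373). Clk3 stood at 108 ± 2.51 and 117 ± 4.92 CPM (edgeR adjusted p 0.534). In both, all 3 YY1 siRNA samples lay above all controls, as in 7.36% of tested genes. Of the genes named below from other lists, Srek1, Lsm8 and Mbnl3 were also higher without overlap. Snrnp40 and Smg6 were lower without overlap, as were 8.91% of tested genes. Among 13 genes of nuclear speckle and arginine-serine rich proteins 0 passed. With edgeR, 1 had an unadjusted p under 0.05 (7.69%, against 10.8% of tested genes). This was Ccnl2, a cyclin that binds splicing factors (107 ± 4.25 and 129 ± 20.025 CPM, edgeR adjusted p 0.401). The next was Srek1 (48.6 ± 1.49 and 54.3 ± 4.13 CPM). In 9 of these 13 genes samples 5 and 6 lay above the other 4 libraries, as they did in 3 of the 7 kinase genes (13.4% of tested genes).

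The 47 genes of snRNP and core spliceosome proteins had 0 calls, 4 higher and 1 lower at an unadjusted p under 0.05 (10.6%, against 10.8% of tested genes), and a median of -0.01. Lsm8, which marks the nuclear Lsm ring on U6, stood at 37.3 ± 0.843 and 43.0 ± 3.17 CPM (edgeR adjusted p 0.388), and Snrnp40, a U5 protein, at 27.6 ± 1.69 and 23.5 ± 1.88 CPM (edgeR adjusted p 0.390). Here samples 5 and 6 lay above the other 4 libraries in 2 genes and below them in 14 (29.8%, against 14.5% of tested genes). Of 19 cell type restricted splicing regulators, 14 were tested, 0 passed and 0 had an unadjusted p under 0.05. Rbfox1, Rbfox3, Srrm4, Esrp1 and Esrp2, regulators of neuronal or epithelial exons, had 0 to 2 counts per library. Among tested ones, Mbnl3 stood at 22.5 ± 0.259 and 25.1 ± 1.05 CPM and Celf2 at 41.5 ± 1.82 and 38.0 ± 4.64 CPM. The 10 nonsense-mediated decay factors had 0 calls, 0 at an unadjusted p under 0.05 and a median of -0.01, with Smg6, the decay endonuclease, at 106 ± 4.85 and 95.7 ± 3.41 CPM (edgeR adjusted p 0.468) and Smg9 at 22.5 ± 1.02 and 23.8 ± 2.02 CPM. DESeq2 called 0 genes in each of these lists.

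Per length, hnRNP genes held the highest levels. On the scale of CPM per kilobase of annotated exon, control samples had Hnrnpab at 154 ± 2.16, Hnrnpa0 at 122 ± 4.55, Hnrnpa2b1 at 93.3 ± 4.27, Hnrnpk at 89.6 ± 1.28 and Ptbp1 at 72.1 ± 0.953 (SD, n = 3). Hnrnpa2b1 and Hnrnpk lay within their spread of each other. Sf3b1 followed at 66.5 ± 0.947, and the highest SR genes were Srsf9 at 61.5 ± 2.11 and Srsf5 at 54.3 ± 0.242. The lowest were Hnrnpa3 at 4.45 ± 0.444 and Hnrnpr at 4.43 ± 0.130, which did not differ beyond their spread. Exon lengths are of all annotated transcripts together, so a gene with long rare exons, such as Hnrnpr at 22199 bases, is placed low. Hnrnpa1 (14.9 ± 1.06) and Hnrnpa3 share 28.2% and 27.1% of their 50-base windows with other genes, so their place is uncertain as well.

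**Figure D5:**
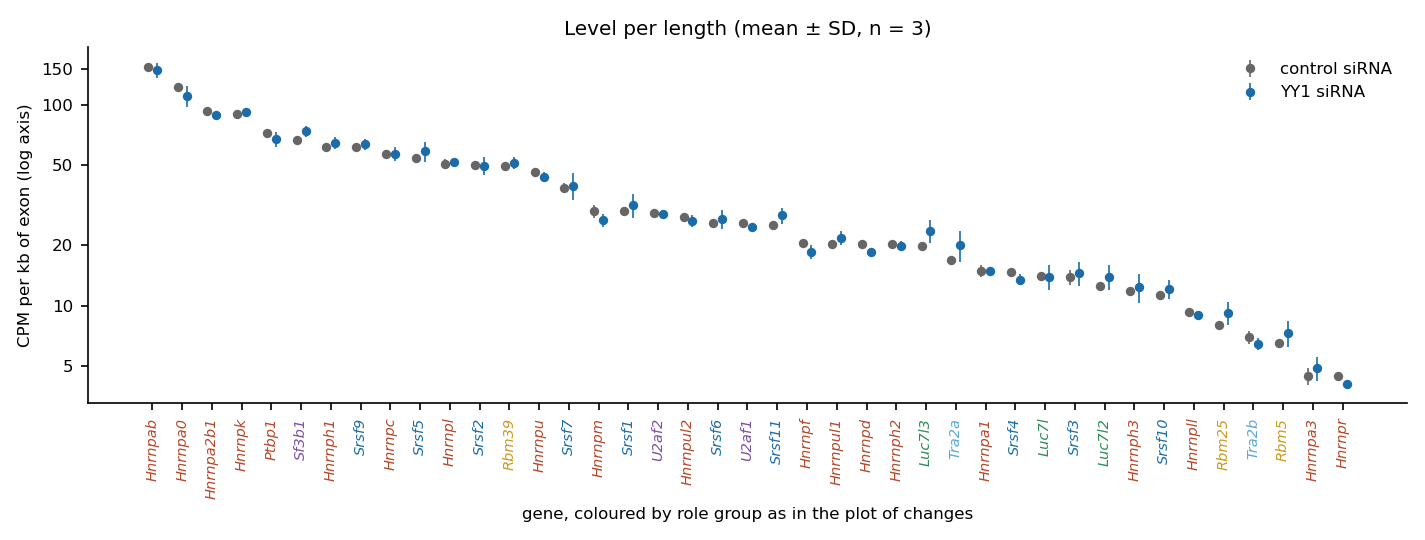
CPM per kilobase of annotated exon (y axis, log scale) of the 41 genes in control and YY1 siRNA samples, mean ± SD (n = 3), ordered by the control level. Levels span from 154 for Hnrnpab to 4.43 for Hnrnpr in control samples.

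Most of the 41 genes share annotation features that the choice by symbol did not use. At least 1 transcript marked as subject to nonsense-mediated decay is annotated for 30 of the 41 (73.2%), against 29.6% of 11555 tested protein-coding genes. At least 1 with a retained intron is annotated for 33 of the 41 (80.5%, against 60.3%). Both kinds are annotated for 28 of the 41 (68.3%, against 23.8%). The median number of annotated transcripts was 9 for these genes and 5 for the tested protein-coding genes, and its part in these shares was not tested. Counts per gene do not show which of these transcripts the reads came from. Of the 41 genes, 10 share at least 10% of their 50-base windows with other genes, and 14 have an annotated gene on the other strand over an exon.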

How the data were processed

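Total RNA of 6 samples was sequenced, and the authors deposited 1 table of raw read counts per gene symbol for each. STAR 2.6.1a and edgeR 3.30.0 with mm10 are named, per the submitters' processing notes. The counter, its annotation and any strand option were not given in the sources used here. Rows for no gene (7.87% to 11.3% of counts) and ambiguous counts (1.01% to 1.15%) were left out.

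Counts were tested with edgeR 4.0.16 (R 4.3.3): filterByExpr, TMM, robust quasi-likelihood F test, two-sided, adjusted by Benjamini and Hochberg over all 12148 genes, threshold 0.05. CPM values are TMM-normalised. Alternatives were RLE factors, library size alone, other filters, DESeq2 1.42.0, limma-voom (limma 3.58.1) with and without sample weights, non-robust fitting, the no-gene share as covariate, and leaving out each sample. The test was checked on simulated counts. Loci, exon lengths and 50-base windows came from GENCODE M21 (all 41 symbols matched), promoters from RefSeq. Proteins were not used here.

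The genes and lists were chosen with earlier results of these data known. Named genes are Yy1, any of the 41 past the threshold, those with the 10 smallest unadjusted p, the 2 highest and 2 lowest log2 fold changes, and the highest mean CPM in each role group. Other genes of the set are named with their role group, and genes with a motif, without group overlap or with a library pattern after their values were seen. From each other list any past the threshold are named, otherwise the 2 with the smallest p. Neat1 and genes too low to test were added.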

Additional observations from a re-analysis of the deposited data

Results flagged for a closer look

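Counts that fell in no gene, which enter no comparison, made up 10.7% of the library for YY1 siRNA sample 5 and 11.3% for sample 6 of that group, higher than in any control sample (at most 9.03%). Ambiguous counts made up 1.15% in YY1 siRNA sample 6, where the highest control had 1.09%.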

How the results depend on the processing

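No splicing factor gene passed under any of the 15 alternatives, and Yy1 passed under all of them (log2 fold change -0.71 to -0.66). No paired analysis was run, since the labels number the samples 1 to 6 and state no pairing between the groups. Genes of the set at an unadjusted p under 0.05, 2 with all samples, numbered 1 when scaled by library size alone (2.44%, against 11.6% of all genes), 4 with unfiltered counts (9.76%, against 9.4%), 4 in DESeq2 (9.76%, against 5.53%), 7 in limma-voom with sample weights (17.1%, against 15.2%), 1 with the no-gene covariate (Tra2b, lower; 2.44%, against 7.7%), and 0 to 16 when leaving out a sample. Over all genes 1 passed, against 7 when scaled by library size alone, 83 with unfiltered counts, 19 in DESeq2, 22 in limma-voom with sample weights and 1 to 41 when leaving out a sample: 41 without YY1 siRNA sample 4, 3 when sample 6 was left out and 2 for control sample 3. The median log2 fold change of the 41 genes, 0.03, was -0.021 with the no-gene covariate and -0.013 to 0.041 when leaving out a sample. That of the SR and SR-like genes ran from -0.057 with that covariate to 0.15 without YY1 siRNA sample 4, and that of the hnRNP genes from -0.066 to -0.021. With the no-gene covariate 14 of all 41 genes changed sign. The 15 genes named by rule were mostly picked for a small p or large change in the main fit, which favours a stable sign. Of these 15, 12 kept their sign throughout. With the covariate the log2 fold changes of the others, Srsf5 (-0.012), Luc7l2 (-0.011) and Rbm39 (-0.021), changed sign. Rbm39 ranged from -0.0041 without YY1 siRNA sample 6 to 0.11 without sample 4. The causes were not tested. In an alternative chosen after seeing the data, leaving out each sample put the ratio difference of Luc7l3 to Luc7l at 0.23 to 0.28 and that of Tra2a to Tra2b at 0.28 to 0.43. The shorter motif AANATGG was in a window of 29.7% of the genes with a window, and of 17.8% of tested genes.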
